A study of Equus caballus with 8 samples.

Results

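Motile cilia genes were followed in the lining of the horse uterus. The set holds 35 genes of multiciliated cells, given by symbol, and all 35 matched a Gene ID among the 24942 in the count table. MCIDAS (Gene ID 100062400) and STOML3 (100066347) had 4 and 1 counts over all libraries, which is under the minimum of 10, so 33 genes were analysed. Biopsies came from 4 cycling Bavarian Warmblood mares (Equus caballus), whose ages the labels do not state. Every mare gave 1 biopsy on Day 12 of pregnancy (the pregnant group, n = 4) and 1 on Day 12 of the oestrous cycle (the cyclic group, n = 4), in random order. Both groups carried an ovulation induced with 1500 IU of human chorionic gonadotropin, and in the pregnant group an embryonic vesicle had been seen by ultrasound. The labels describe artificial insemination with semen of 1 stallion for the mares without setting the groups apart. Biopsies were taken after the uterus had been flushed, and each holds epithelium, stroma and vessels together.

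A motile cilium is built on an axoneme, a ring of microtubule doublets around a central pair of microtubules. Dynein arms on the doublets slide neighbouring doublets past each other, radial spokes pass signals from the central pair to the arms, and nexin links turn the sliding into bending. Multiciliated cells are switched on by a short cascade in which MCIDAS and cyclin O (CCNO) drive the making of many basal bodies and the transcription factor FOXJ1 turns on the genes of the axoneme. In the uterus these cells are scattered among the secretory cells of the luminal and glandular epithelium, where their beat moves fluid and secretions, and their number is known to follow ovarian steroids.

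Total counts ran from 9.81 to 16.7 M per library, the pregnant library of mare 1 being the shallowest and the other 7 holding at least 15.5 M. Levels are given in CPM, counts relative to library size scaled by TMM (the trimmed mean of M values), and they are compared between libraries, not between genes, since no transcript lengths were at hand. The 33 genes had between 89 and 12456 counts in all. The lowest count of any of them in a library was 5, for CCNO. The words rose, fell and differed between mares are kept for genes where edgeR's quasi-likelihood test gave an adjusted p below 0.05 over all 15342 genes tested. The library kit as described does not mark the strand, and 15 of the 33 genes overlap another counted gene in the RefSeq table, so that reads of the overlap may belong to either gene.

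The first comparison asked whether transcripts of motile cilia differ when a conceptus is present. Differences were small. TPPP3, a tubulin-binding protein that promotes microtubule assembly, rose 1.28-fold, and the other 32 genes did not pass the test. Log2 fold changes (pregnant over cyclic) of the 33 genes ran from -0.25 to 0.35 with a median of 0.05, against a median of 0.00 over all genes tested. Of the 33, 1 rose and 0 fell in edgeR's test, beside 8.53% of all genes tested that rose and 8.19% that fell. Without adjustment, 3 were higher and 1 lower at p under 0.05. The share of all genes at that cut was not counted, but it is at least the 16.7% that passed after adjustment. DESeq2 and limma-voom each called 1 gene higher and 0 lower, beside 14.9% and 16.7% of all genes called in either direction. Over all genes the rises and falls numbered 1309 and 1256, and with library totals in place of TMM 1416 and 864. In a bulk biopsy, a change in the number of ciliated cells and a change in RNA per ciliated cell cannot be told apart.

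The 95% intervals show how large a change these libraries leave room for. For 32 of the 33 genes the whole interval lay inside a 2-fold change in either direction, beside 13062 of all 15342 genes tested. For 27 of the 33 it lay inside a 1.5-fold change, beside 9630 of all genes tested. The exception among the 33 at 2-fold was CCNO, whose interval of log2 fold change ran from -0.59 to 1.00. The median distance from estimate to interval end was 0.28 on the log2 scale, against 0.24 over all genes tested. The 4 pregnant libraries lay wholly above the 4 cyclic ones for 0 of the 33 genes and wholly below them for 0, against 6.0% and 4.73% of all genes tested.

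**Figure D1:**
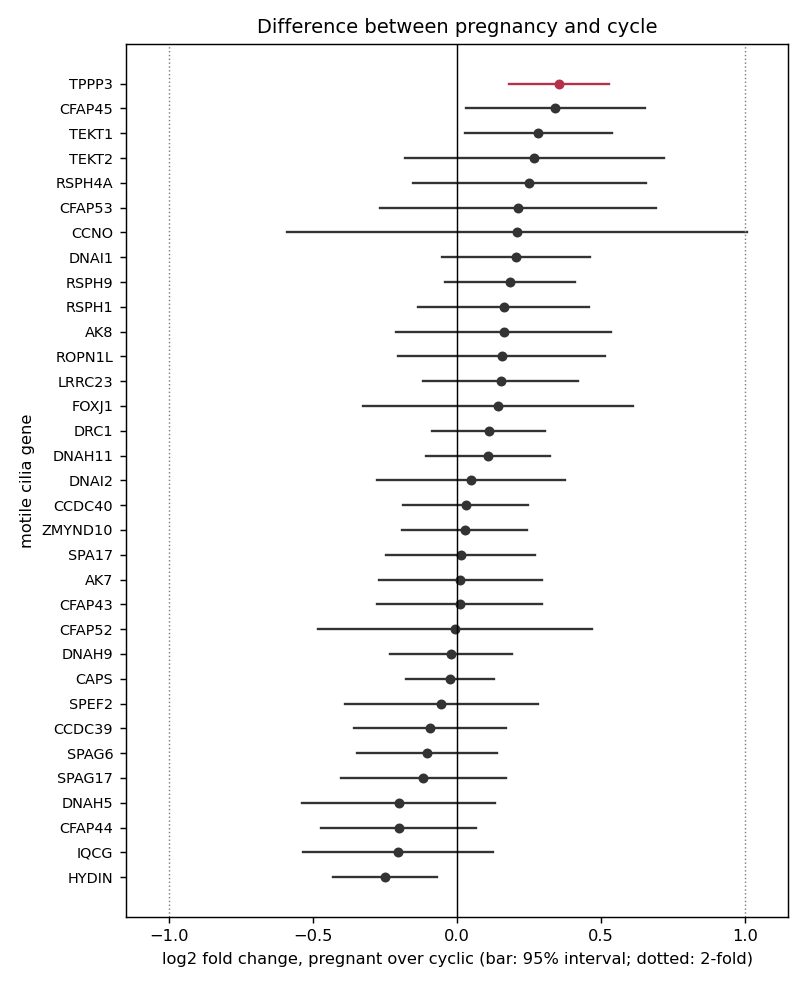
Log2 fold change of each of the 33 motile cilia genes, pregnant over cyclic (x axis; points are estimates from the model with the mare as a block, bars are 95% intervals, dotted lines mark a 2-fold change). TPPP3, in red, is the gene that passed the test at 0.35, and all estimates lie between -0.25 and 0.35.

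TPPP3 (100066008) measured 61.8, 61.2, 71.9 and 29.9 CPM in the cyclic libraries of mares 1 to 4 and 76.7, 70.6, 89.6 and 45.2 CPM in their pregnant libraries. Each mare was higher in pregnancy, yet the groups overlapped, because the pregnant value of mare 4 was below the cyclic values of the other mares. Its log2 fold change was 0.35 ± 0.08 (SE; adjusted p = 0.0136), with group means of 56.2 ± 18.2 and 70.5 ± 18.7 CPM (SD, n = 4). The call was lost without mare 1 (log2 fold change 0.37, adjusted p = 0.0592, where 8.23% of all genes were called) and without the mare as a block (adjusted p = 0.614, where 2.54% were). It held in the other 9 of 11 alternatives. The gene overlaps LRRC36 in the RefSeq table, and the part of that overlap in its counts was not tested.

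Next smallest in p was HYDIN (102150351), a very large protein of the central pair. HYDIN measured 55.1, 33.3, 54.8 and 25.4 CPM in the cyclic libraries of mares 1 to 4 and 39.8, 30.6, 47.4 and 22.1 CPM in the pregnant ones. All 4 mares were lower in pregnancy, with a log2 fold change of -0.25 ± 0.08 (SE), and the gene missed the threshold (adjusted p = 0.0643; 0.0576 to 0.710 over its alternatives). TEKT1 (100072737), a tektin that runs along the inside of the doublets, measured 12.9, 9.80, 13.0 and 4.71 CPM (cyclic) and 13.4, 13.6, 15.2 and 6.16 CPM (pregnant). CFAP45 (100057891), a protein bound inside the doublet microtubules, measured 13.3, 9.36, 14.6 and 5.76 CPM and then 14.5, 16.4, 15.2 and 7.58 CPM. Both were higher in 4 of 4 mares and did not pass, with adjusted p of 0.126 for TEKT1 and 0.130 for CFAP45 (0.0862 to 0.772 over the alternatives of both). RSPH9 (100067560), of the radial spoke head, measured 25.0, 25.6, 21.7 and 17.4 CPM and then 27.6, 29.2, 20.8 and 24.0 CPM (adjusted p = 0.249).

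Differences within single mares did not share a direction, and single genes ranged from a log2 ratio of -0.63 to 0.80 (CFAP45 in mare 2). In mare 2, 28 of the 33 genes were higher in the pregnant library, with a median log2 ratio of 0.25, while in mare 3 only 9 were higher, with a median of -0.10. In mares 1 and 4, 16 and 20 genes were higher, with medians of -0.02 and 0.14. Over all genes tested the median log2 ratio lay between -0.01 and 0.01 in each mare. DNAI1, TEKT1, CFAP45 and TPPP3 were higher in 4 of 4 mares and HYDIN and IQCG lower in 4 of 4, which is 4 and 2 of 33, beside 19.2% and 19.6% of all genes tested.

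The second comparison asked whether the mares differed from each other in these genes, whatever their state. The test of the 3 mare terms together found differences between mares for 21 of 33, against 15.9% of all genes tested. Mare 4 held the low values: for 28 of the 33 genes both of her libraries lay below all 6 libraries of the other mares, which was so for 5.65% of all genes tested. For mares 1, 2 and 3 the count was 0 of 33 each, beside 6.54%, 6.11% and 5.25% of all genes. At the other end, both libraries of mare 3 were the highest for 7 of the 33 genes (6.13% of all genes), those of mare 1 for 2 (5.36%), of mare 2 for 1 (7.24%) and of mare 4 for 0 (5.38%). The sum of the 33 genes was 769.5, 643, 875 and 411 CPM in the cyclic libraries of mares 1 to 4 and 759, 766, 790.1 and 463 CPM in the pregnant ones. Mare 4 stood at 57.0% of the mean of the other mares, and the cyclic and pregnant groups overlapped almost fully, at 675 ± 199.8 and 695 ± 155 CPM (SD, n = 4). Each mare gave 1 library per state. The error of this test therefore joins any part of the pregnancy effect that varies among mares with differences between biopsies and between libraries. These parts cannot be told apart here.

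**Figure D2:**
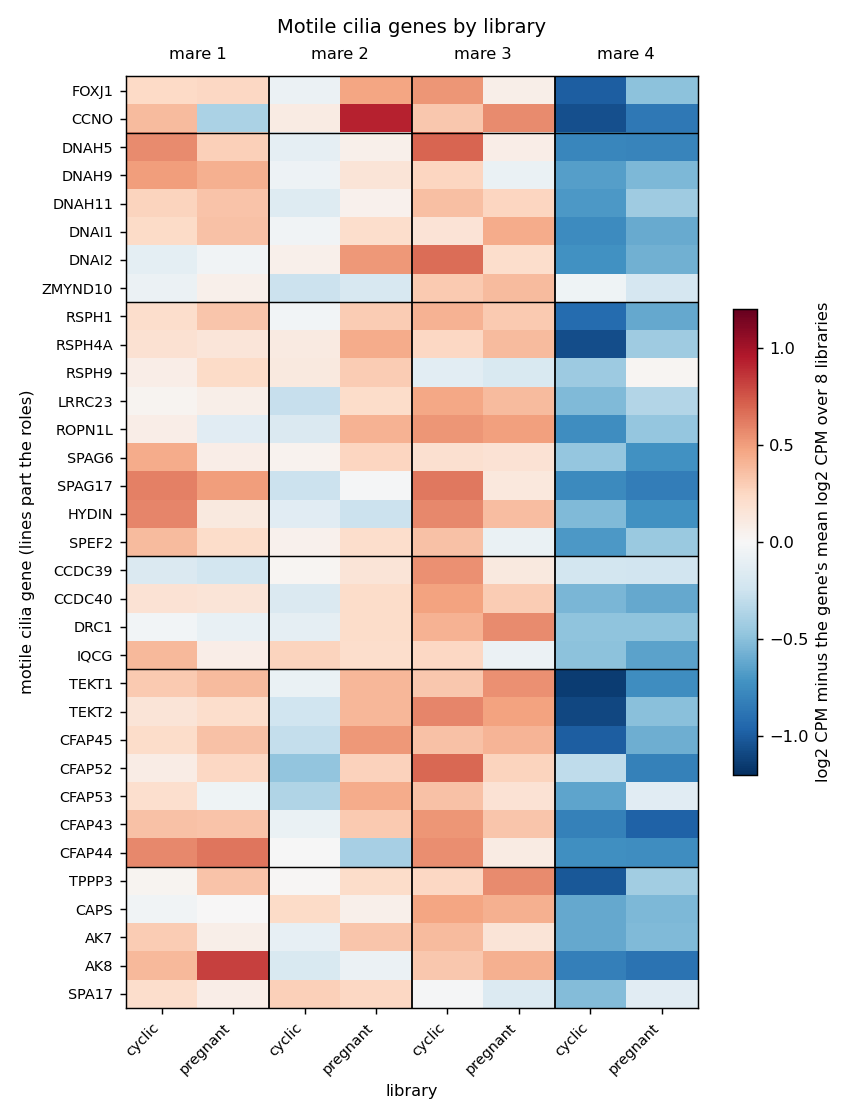
Each row is a motile cilia gene and each column a library, ordered by mare and state. Colour gives log2 CPM minus that gene's mean log2 CPM over the 8 libraries, blue below and red above the mean. The 2 columns of mare 4 are blue in nearly every row, and for 28 of 33 genes they hold the lowest values.

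All 6 pairs of mares were compared within the same model, a step added after the difference between mares had been seen. Mare 4 was lower than mare 1 for 18 genes (3.84% of all genes tested), lower than mare 2 for 12 (2.54%) and lower than mare 3 for 23 (3.04%). She was higher for 0 of 33 genes in each of these edgeR tests, beside 3.28%, 3.55% and 3.62% of all genes. The p-values carry no adjustment for the number of pairs. The median log2 difference over the 33 genes was -0.87 against mare 1, -0.72 against mare 2 and -1.03 against mare 3, with medians between -0.01 and 0.00 over all genes tested. Among mares 1, 2 and 3 each pair gave 2 called genes. Mare 2 was below mare 1 in HYDIN and CFAP44 (4.59% of all genes called in either direction), mare 3 above mare 1 in DRC1 and CAPS (6.14%), and mare 3 above mare 2 in ZMYND10 and HYDIN (7.88%). Thus 2 of 33 in these pairs was near the share of all genes. The count of 21 rests on mare 4: without her, 4 of 33 genes differed among mares 1 to 3 (CAPS, DRC1, CFAP44 and HYDIN), beside 11.0% of all genes tested.

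**Figure D3:**
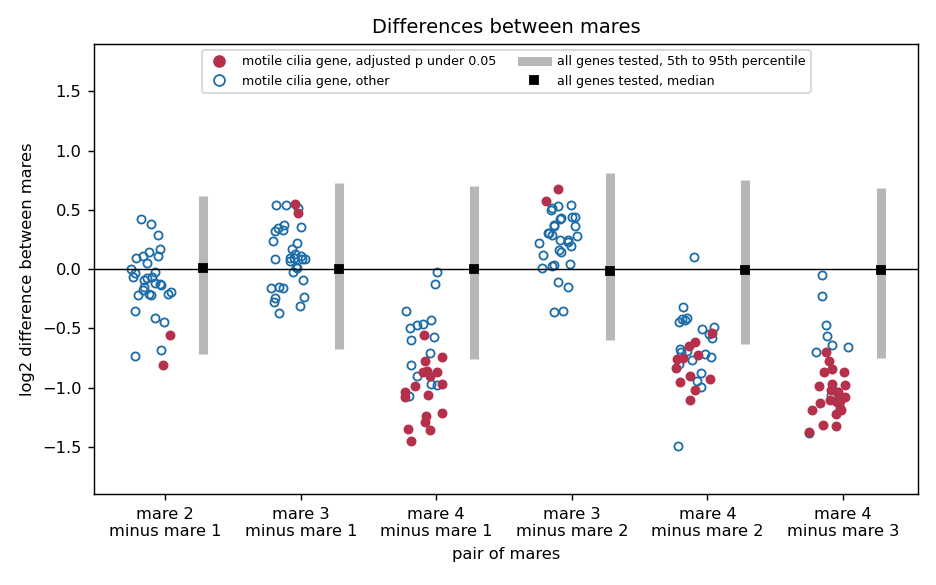
Log2 difference between each pair of mares for the 33 motile cilia genes (points; red where the adjusted p is under 0.05), beside the 5th to 95th percentile (grey bar) and median (black square) of all 15342 genes tested. The 3 pairs that hold mare 4 have medians of -0.87, -0.72 and -1.03 for these genes, and the other 3 have medians between -0.12 and 0.28.

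FOXJ1 and CCNO, regulators at the top of the cascade, did not pass either test, and MCIDAS was too scarce to be tested. FOXJ1 (100147129) measured 114, 91.9, 139.8 and 48.5 CPM in the cyclic libraries of mares 1 to 4 and 115, 134, 101 and 68.6 CPM in the pregnant ones. Both libraries of mare 4 were the lowest, and mares 2 and 3 moved in opposite directions between the states. Its log2 fold change in pregnancy was 0.14 ± 0.19 (SE; adjusted p = 0.668), and the test between mares gave adjusted p = 0.111. That second value fell below the threshold in DESeq2 (adjusted p = 1.80e-04) and without mare 3 (adjusted p = 0.0103 by edgeR) and was up to 0.950 in the other alternatives. CCNO (100147250) was scarce, at 0.837, 0.691, 0.807 and 0.310 CPM (cyclic) and 0.497, 1.22, 0.956 and 0.355 CPM (pregnant), or 5 to 19 counts a library. Its lowest values were again those of mare 4 (adjusted p between mares = 0.195). MCIDAS, which acts above CCNO and FOXJ1 while basal bodies are being made, had 0 counts in 5 of 8 libraries and at most 2 in any. In those 5 a count of 0 allows up to 3 counts, or 0.178 to 0.298 CPM on the same TMM scale, below which a level was not detectable.

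Outer dynein arm genes differed between mares in 5 of 6 cases (15.9% of all genes tested). The heavy chains are the motors of the arm. DNAH9 (100073091) measured 67.0, 45.5, 56.6 and 29.9 CPM (cyclic) and 63.6, 52.6, 44.9 and 32.6 CPM (pregnant), so that mare 1 was highest and mare 4 lowest in both states (adjusted p between mares = 0.00619). DNAH5 (100070308) and DNAH11 (102150627), the other heavy chains of the set, stood at 47.3% and 59.5% of the other mares in mare 4, with adjusted p between mares of 0.0165 and 0.00967. The intermediate chains DNAI1 (100068649) and DNAI2 (100060918), which hold the arm together, stood at 53.3% and 53.7% (adjusted p = 0.0129 and 0.0242). ZMYND10 (100146221), a factor that helps to assemble the arms in the cytoplasm before they enter the cilium, did not follow. It measured 14.2, 12.4, 18.5 and 14.3 CPM (cyclic) and 15.5, 13.0, 19.3 and 12.9 CPM (pregnant), mare 3 being highest and mare 2 about as low as mare 4 (adjusted p = 0.0520). The gene passed between mares in 2 of 10 alternatives, with library totals (0.0284) and with the filter at more than 2 CPM (0.0481).

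Genes of the radial spokes and the central pair differed between mares in 6 of 9 cases (15.9% of all genes tested). HYDIN, whose values stand above, had the smallest p between mares of the set (adjusted p = 0.00142). SPAG17 (100059849), another central pair protein, measured 20.5, 11.3, 20.9 and 7.93 CPM (cyclic) and 19.1, 13.3, 14.7 and 7.58 CPM (pregnant). Here mare 2 also lay low, and the adjusted p between mares was 0.00600. SPAG6 (100066860), of the central pair, and RSPH1 (100057874), of the spoke head, were at 57.7% and 49.2% of the other mares in mare 4 (adjusted p = 0.0178 and 0.0154). LRRC23 (100052720) and ROPN1L (100146663), parts of the spokes, also passed, but both calls were lost without mare 3 or mare 4 (adjusted p 0.135 to 0.262), that of LRRC23 also without mare 1 (0.0544) and that of ROPN1L with limma-voom (adjusted p = 0.05005). LRRC23 passed in 7 of 10 alternatives, as did ROPN1L. RSPH4A (100067025), SPEF2 (100067964) and RSPH9 did not pass, with adjusted p of 0.0607, 0.0692 and 0.118, and of these SPEF2 passed in 1 of 10 alternatives (without mare 3, 0.0492).

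Among the 4 genes of the molecular ruler and the nexin links, CCDC40 and DRC1 differed between mares, which is 2 of 4 beside 15.9% of all genes. CCDC39 and CCDC40 form the filament that sets the spacing of arms and spokes along each doublet. CCDC40 (100056721) measured 46.9, 37.1, 58.4 and 28.6 CPM (cyclic) and 46.3, 48.5, 51.5 and 27.3 CPM (pregnant) (adjusted p between mares = 0.00929). Its partner CCDC39 (100066028) measured 11.5, 13.2, 18.9 and 11.1 CPM and then 11.1, 14.4, 14.0 and 11.1 CPM, where mare 1 was about as low as mare 4 (adjusted p = 0.0870). DRC1 (100071349), a scaffold of the nexin-dynein regulatory complex, ran from 21.6 CPM in mare 4 to 44.7 CPM in mare 3, both in pregnancy (adjusted p = 0.00615). IQCG (100070192), of the same complex, did not pass (adjusted p = 0.0662).

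Proteins of the doublet wall and of the dynein tether differed between mares in 4 of 7 cases (15.9% of all genes tested). TEKT1 stood at 41.9% of the other mares in mare 4 (adjusted p between mares = 0.00347), the lowest share in the set but for CCNO at 39.8%. CFAP43 (100059488) and CFAP44 (100071418) form the tether of an inner dynein arm. CFAP43 stood at 43.5% in mare 4 (adjusted p = 0.00705). CFAP44 measured 19.2, 12.8, 18.9 and 7.68 CPM (cyclic) and 20.1, 9.73, 13.8 and 7.64 CPM (pregnant), mare 2 being next lowest in both states (adjusted p = 0.00471). CFAP45 passed as well (adjusted p = 0.0159), while TEKT2 (100055105), CFAP52 (100062832) and CFAP53 (100053812) did not (adjusted p = 0.0512, 0.128 and 0.395). TEKT2 passed in 4 of 10 alternatives and CFAP52 in 1 of 10 (without mare 2, 0.0339).

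Of the 5 remaining genes, 4 differed between mares (15.9% of all genes tested). CAPS (100065259), the calcium-binding protein calcyphosine, measured 65.6, 79.2, 94.0 and 44.3 CPM (cyclic) and 67.8, 70.8, 90.8 and 46.5 CPM (pregnant). Every mare kept nearly the same level in both states, mare 3 highest and mare 4 lowest, and the gene passed between mares in 10 of 10 alternatives (adjusted p = 0.00142 in the main test and 0.0363 without mare 4). CAPS overlaps the counted genes RANBP3 and VMAC, whose part in its counts was not tested. TPPP3, whose values stand above, was likewise highest in mare 3 and lowest in mare 4 in both states (adjusted p between mares = 0.00159). AK7 (100054566) and AK8 (100066634), adenylate kinases of the cilium, stood at 58.5% and 44.4% of the other mares in mare 4 (adjusted p = 0.0352 and 0.0153), and both calls were lost without mare 1 (0.0505 and 0.0562) or mare 4 (0.8293 and 0.138). SPA17 (100064207), a sperm tail protein also present in cilia, measured 16.4, 17.2, 13.97 and 9.85 CPM and then 14.9, 16.8, 12.5 and 12.8 CPM (adjusted p = 0.0983).

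**Figure D4:**
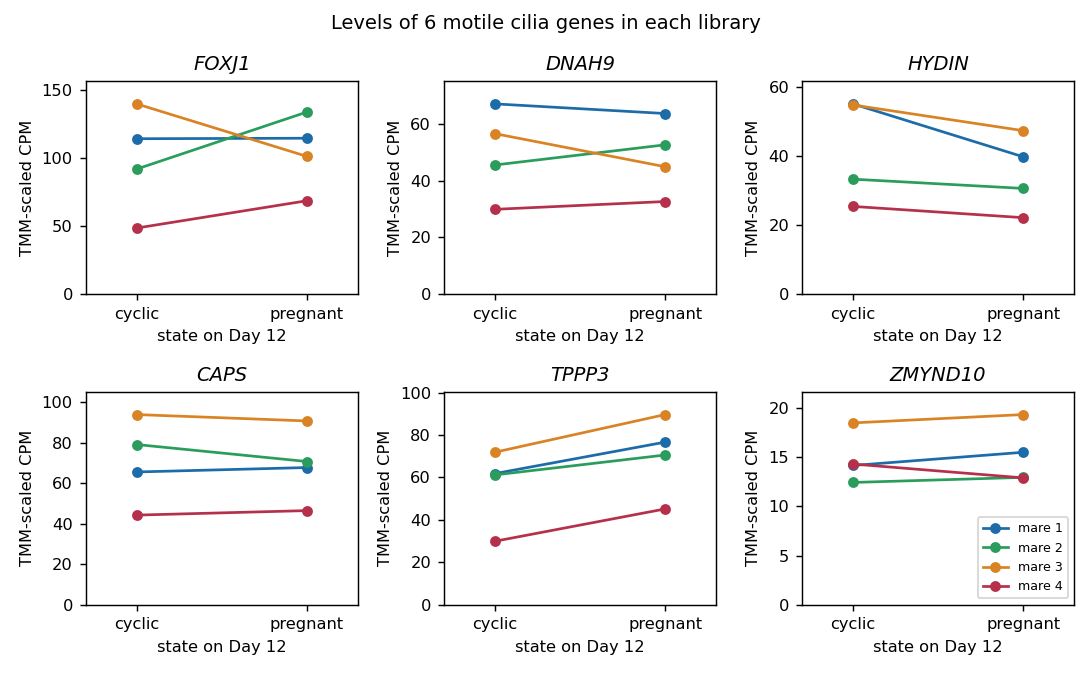
TMM-scaled CPM of 6 motile cilia genes in each library (y axes start at 0; lines join the cyclic and pregnant library of a mare). Mare 4 is lowest in both states for FOXJ1, DNAH9, HYDIN, CAPS and TPPP3 but not for ZMYND10, and TPPP3 is higher in pregnancy in 4 of 4 mares.

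The genes shared much of their pattern over the 8 libraries, but not all of it. As a measure, the root mean square difference over libraries was taken between a gene's log2 CPM, centred on its mean, and the mean of the other 32 so centred. It ran from 0.0774 for AK7 and 0.0805 for CCDC40, the genes closest to the shared pattern, to 0.343 for RSPH9 and 0.333 for ZMYND10, with a median of 0.194. In 5 genes the libraries of mare 4 were not the lowest pair: ZMYND10, RSPH9, CFAP52, CFAP53 and SPA17. Of these 5, 4 overlap another counted gene in the RefSeq table (CYB561D2, MRPS18A and MAD2L1BP, MBD1, and SIAE), beside 11 of the other 28. The part of such overlaps in these values was not tested.

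Genes outside the set were ranked by the same measure against the mean pattern of the 33, over 12694 genes with a symbol and a mean of at least 1 CPM. The closest was GLB1L2, a galactosidase-like gene, with a difference of 0.0892 and levels of 19.5 ± 4.84 CPM (cyclic) and 20.01 ± 4.596 CPM (pregnant) (SD, n = 4). MORN5 (0.115), CCDC103 (0.115), the dynein light chain DYNLRB2 (0.121), CFAP57 (0.121), the globin-related ADGB (0.121), KIAA2012 (0.122) and TSNAXIP1 (0.125) came next. CCDC103 and CFAP57 are also in the list of other axonemal genes described next. As the ranking used these libraries, their level in mare 4 follows from the choice: the 8 genes stood between 48.4% (MORN5) and 65.1% (DYNLRB2) of their mean in the other mares.

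Other axonemal genes, a list of 71 of which 65 were tested, stood by their sum at 76.1% of the other mares in mare 4. In pregnancy 0 of 65 rose and 1 fell, beside 8.53% and 8.19% of all genes tested. The 1 was DNAL1, an outer arm light chain, which fell from 6.94 ± 0.850 to 4.41 ± 0.333 CPM (SD, n = 4; adjusted p = 0.0167). The median log2 fold change of the list was 0.04. Between mares 29 of 65 differed, beside 15.9% of all genes tested, and in 38 of 65 both libraries of mare 4 were the lowest, beside 5.65%. The smallest p were those of DNAAF1, a dynein assembly factor, CFAP65, and the dynein heavy chains DNAH1 and DNAH2 (adjusted p 0.00125 to 0.00824). DNAAF1 stood at 33.7% of the other mares in mare 4, CFAP65 at 51.4%, DNAH1 at 58.9% and DNAH2 at 60.4%.

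Regulators of multiciliation, with 15 of 18 tested, differed between mares in 5 cases (15.9% of all genes tested). By their sum they stood at 83.6% of the other mares in mare 4. Both libraries of mare 4 were the lowest in 2 of 15, beside 5.65% of all genes tested. The median log2 difference of mare 4 to mare 3 was -0.16 in this list. RFX3, a transcription factor that acts with FOXJ1 on ciliary genes, was the 1 gene of 15 to change in pregnancy (16.7% of all genes). It fell from 4.64 ± 2.06 to 2.90 ± 1.45 CPM (SD, n = 4; log2 fold change -0.69 ± 0.18 SE; adjusted p = 0.0259) and also differed between mares (adjusted p = 0.00998), at 36.7% in mare 4. Its relative RFX2 did not change in pregnancy by the test, at 19.0 ± 6.50 and 22.6 ± 6.18 CPM (adjusted p = 0.199), and stood at 59.7% in mare 4 (adjusted p between mares = 0.0264). CCDC78, which takes part in basal body amplification, stood at 61.6% (adjusted p = 0.0213), and CEP63, a centriole protein, at 87.5% (0.0121).

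Genes of intraflagellar transport and the primary cilium, which most cell types carry, stood by their sum at 97.1% of the other mares in mare 4. Of 36 tested, 9 (25.0%) differed between mares, beside 15.9% of all genes tested, and both libraries of mare 4 were the lowest in 7, beside 5.65%. The median log2 difference of mare 4 to mare 3 was -0.14 in this list, against -1.03 in the motile cilia genes. In pregnancy 1 rose and 5 fell, beside 8.53% and 8.19% of all genes. Among those that fell were RPGRIP1L, of the ciliary transition zone (13.2 ± 2.44 to 7.62 ± 1.55 CPM), the retrograde dynein DYNC2H1 (24.5 ± 6.14 to 16.7 ± 2.76) and KIFAP3, a kinesin subunit (59.8 ± 4.90 to 48.7 ± 7.95; SD, n = 4 for each), with adjusted p from 0.00505 to 0.0252. Smallest in p between mares were PKD1, PKD2, IFT81 and IFT140 (adjusted p 0.0156 to 0.0211), of which IFT140 stood at 73.7% in mare 4 and PKD1 at 121%.

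Markers of other cells of the biopsy were set beside the motile cilia genes. Each biopsy carried the epithelial markers of endometrium, 16 of 18 being matched to a Gene ID (KRT8 and KRT19 were not) and all 16 above 0 in every library. Their sum ran from 2798 to 3218 CPM (cyclic) and from 2647 to 2879 CPM (pregnant), and in mare 4 it was 96.8% of the other mares. Its log2 ratio, pregnant over cyclic, was -0.11, -0.16, -0.14 and -0.01 in mares 1 to 4. The 33 motile cilia genes made 14.7% and 16.7% of the epithelial sum in the cyclic and pregnant library of mare 4, and 19.98% to 29.99% in the other 6. Thus mare 4 was at 58.5% of the others on this scale, beside 57.0% without it. From cyclic to pregnant library this share moved from 26.3% to 28.1% (mare 1), 19.98% to 26.6% (mare 2) and 29.99% to 29.84% (mare 3). Of the 16, 1 rose and 3 fell in pregnancy, beside 8.53% and 8.19% of all genes: the mucin MUC1 rose 1.58-fold, and the keratins KRT7 and KRT18 and the splicing factor ESRP2 fell by 0.59, 0.31 and 0.26 on the log2 scale. KRT7, KRT18 and ESRP2 also differed between mares (adjusted p 0.0162 to 0.0427), at 125%, 80.8% and 128% of the other mares in mare 4. MUC1 stood at 67.2% there.

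Stromal markers rose in 7 of 11 cases, among them DPT (2.09-fold), and endothelial markers in 9 of 10, among them CDH5 (1.83-fold), beside 8.53% of all genes tested. The sum of the stromal markers ran from 4004 to 5413 CPM (cyclic) and 4713 to 5554 CPM (pregnant), and that of the endothelial markers from 403 to 565 and from 719 to 1226 CPM. In mare 4 they were at 105% and 86.9% of the other mares. Of 8 leukocyte markers 3 rose (CD14, CD79A and CD3D; 8.53% of all genes), with sums of 108 to 177 and 148 to 175 CPM and 96.3% in mare 4. The labels describe insemination for the mares without setting the groups apart, and motile cilia genes are shared with the sperm tail. Sperm and spermatid genes were therefore read too. Of 14 matched, 10 had under 10 counts over all libraries, the protamines PRM1 and PRM2 and the transition proteins TNP1 and TNP2 among 6 at 0. The other 4, led by CABYR at 2.72 ± 0.425 and 2.67 ± 0.413 CPM and AKAP3 at 1.57 ± 0.216 and 1.21 ± 0.545 CPM (SD, n = 4), summed to 3.97 to 5.79 CPM. The 3 of these that were tested did not pass, the smallest adjusted p of CABYR and AKAP3 in either test being 0.324. The part of any of these cell types in the motile cilia values was not tested.

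**Figure D5:**
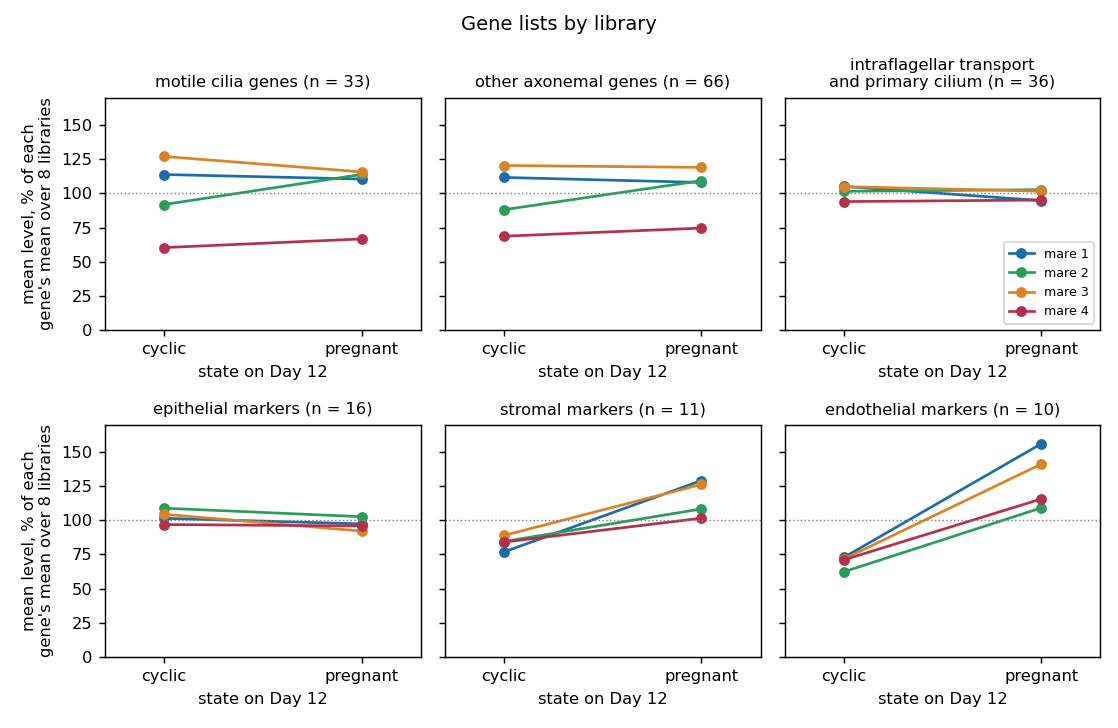
Mean level of the genes of a list in each library, as a percent of each gene's mean over the 8 libraries (y axis; lines join the libraries of a mare, the dotted line is 100%). For the motile cilia genes mare 4 stands at 60.3% in the cycle and 66.6% in pregnancy, while the epithelial markers of mare 4 stand at 96.9% and 95.9%; the endothelial markers lie higher in pregnancy in every mare.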

How the data were processed

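Poly(A) RNA of 8 endometrial biopsies was sequenced, 2 from each of 4 mares, with RNA integrity numbers of 8.3 to 9.2 per the labels. The authors deposited raw read counts per gene (NCBI Gene ID). The submitters' processing notes name Trimmomatic 0.32.2 and HISAT2 2.0.3. The sources used here do not give a build, an annotation or a counter. A second table, of 14037 genes, was deposited as scaled signal values. Checked on the values, these are CPM after TMM scaling (100% within a relative tolerance of 0.001), and they served for this check only. No column was left unused (0 columns). Symbols came from the RefSeq gene table of the TB-T2T assembly, which held 85.9% of the IDs.

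The count test was run with edgeR 4.0.16 under R 4.3.3 (filterByExpr with a minimum count of 10, TMM, robust quasi-likelihood F-test, Benjamini-Hochberg adjustment over 15342 genes). The model held state and mare, since the design text gives both biopsies to each mare. Same-mare libraries deviated together, with correlations of 0.54, 0.38, 0.48 and 0.47 for mares 1 to 4 across genes, against at most -0.02 between mares. Each gene was centred on its mean over the 4 mares of a state. With positive same-mare values, this centring in itself pushes the values between mares below 0. SEs are the log2 fold change, without sign, over the square root of F. DESeq2 1.42.0, limma-voom (limma 3.58.1), other scalings and filters, no mare block and leaving out each mare were alternatives. Log2 CPM used a prior count of 2. The tests were checked on simulated data. Libraries of the same group all differed by more than sampling noise (lowest chi-square per degree of freedom 27.4). Intervals and the limit of 3 counts cover counting error only where no replicates enter, as the libraries carry no molecular identifiers.

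The genes of the set and the other lists were chosen with earlier results of these data known. Values per library are given for FOXJ1, MCIDAS and CCNO, for genes changed in pregnancy, for the 4 others with the smallest p for pregnancy and the 6 with the smallest p between mares. Some further genes were added after their values were seen (DNAH9, ZMYND10, CCDC39, CCDC40, SPA17). Of each other list, up to 4 called genes with the smallest p are named, or 2 of the most abundant. A gene that this rule picks is not reported here. Levels per coding length and promoter sequences, planned as descriptions, were not used here, and no coordinates are given.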

Additional observations from a re-analysis of the deposited data

Results flagged for a closer look

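Of 156 groups of 4 libraries looked at (the 33 motile cilia genes, their sum and the other named genes, in each state), 7 (4.49%) held a library whose gap to its nearest neighbour took a larger part of the group's range than Dixon's 95% critical value. Chance flags about 1 in 20 such groups. In 5 of the 7 the library apart was that of mare 4, at the low end. In the pregnant group these were RSPH1 (4.85 CPM against 9.15 to 9.35, ratio 0.957), CFAP52 (3.73 against 7.76 to 7.93, ratio 0.959), CFAP43 (5.21 against 12.7 to 12.9, ratio 0.971) and the sum of the 33 genes (463 against 759 to 790.1, ratio 0.906). In the cyclic group it was RSPH4A (1.67 against 3.77 to 4.16, ratio 0.844). The other 2 were the cyclic library of mare 3 for the centriole gene CEP63 (32.2 CPM, ratio 0.910) and for the stromal gene MFAP4 (34.4 CPM, ratio 0.966).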

How the results depend on the processing

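The count of motile cilia genes changed in pregnancy was 1 in each of the 3 scalings and 3 filters and in DESeq2 and limma-voom, 0 without the mare as replicate block, and 0 to 1 when a mare was left out. For all genes the count was 389 without the replicate block, against 2565 with it, and 1266 to 2057 when a mare was left out, lowest without mare 1, which includes the shallowest library. The replicate block changed no other call among the 33. Genes that differed between mares numbered 1103 to 2049 with a mare left out, against 2435 in all, the lowest again without mare 1. Of the 33, 20 to 23 differed between mares under the other scalings, filters and tools, and 4 to 23 with a mare left out, where the 4 belongs to mare 4. The sum of the 33 genes, pregnant over cyclic, was 0.06 on the log2 scale and 0.00 to 0.14 with a mare left out. Mare 4 stood at 54.7% to 59.5% of the others with mare 1, 2 or 3 left out and at 58.5% relative to the epithelial markers, a scale added after the data were seen. With library totals the median log2 fold change was 0.04 over all genes and 0.08 over the 33. With 4 mares and 2 libraries each, a difference between mares rests on single animals.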
